A study of Drosophila melanogaster with 6 samples.

Results

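The 10 genes described here make, move, sense and break down dopamine in the fly. They are the synthesis enzymes ple and Ddc, the transporters Vmat and DAT, the receptors Dop2R, Dop1R1, Dop1R2 and DopEcR, and the turnover enzymes e and t. They were taken by symbol, as the entries of the count table whose FlyBase identifier carries one of these names. This rule uses no measured value, but the genes, and the lists set beside them below, were chosen with earlier results of these data known. All 10 were found among the 17807 genes of the table, and all 10 were among the 10696 genes with enough reads to be tested. RNA came from male heads, in 3 pum kd libraries and 3 control libraries, and a library held the RNA of 10 heads. In pum kd flies the RNAi transgene was UAS-pumRNAi (TRiP.HMS01564, inserted at attP2), which targets the RNA-binding protein gene pum. In control flies the transgene was UAS-mCherryRNAi (VALIUM20-mCherry.RNAi, also at attP2), against a fluorescent protein that flies lack. Both groups were otherwise given the same genotype. Its X chromosome was written as w1118 over y1, sc*, v1, sev21, although males carry a single X. Both groups also carried 1 copy of esg-Gal4 with UAS-2xYFP, and Su(H)GBE-Gal80 with the temperature-sensitive tub-Gal80ts. Flies grew at 18 °C and expressed the transgene at 29 °C. They were taken after sleep assays, left for 30 min to recover from transfer and frozen. The driver works in intestinal stem cells and in the corpus allatum, whereas whole heads were sequenced, so most cells behind these values were not the ones targeted. The paper also cites work in which esg-Gal4 was active in a small subset of adult brain neurons. It leaves the extent of this with the present driver to future studies. The labels give no age and name no shared culture, and p-values measure the spread between these pools.

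Dopamine is made from tyrosine in a short chain of reactions, loaded into vesicles, released, sensed by G protein-coupled receptors and taken back up or chemically modified. In flies it is a wake-promoting signal, and it also serves reward learning, locomotion and the tanning of cuticle. Dopaminergic neurons are a small set of cells in the fly brain, while several of the genes that handle dopamine are also used by serotonin neurons, glia, photoreceptors or epidermis. In a bulk head sample, fewer cells of a type and less RNA per cell cannot be told apart.

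The gene counts of a library summed to 33258537 to 39377789 in pum kd heads and 33445243 to 34300972 in control heads. Values are given in CPM, read counts put on a common library size with TMM factors, which correct for differences in library composition. Differences were tested with edgeR's quasi-likelihood test, with p-values adjusted by Benjamini-Hochberg over all 10696 genes. A call needed both an adjusted p under 0.05 and a log2 fold change of 1 or more in either direction. The knocked-down gene itself, pum, had 176, 192 and 228 CPM in pum kd libraries 1, 2 and 3, against 346, 168 and 270.3 CPM in control libraries 1, 2 and 3. Its groups overlapped (log2 fold change -0.40, adjusted p = 0.993 in edgeR), so head RNA does not check the labels. The head label was met by the photoreceptor markers, which summed to 103066 to 118588 CPM in pum kd heads and 105242 to 116995 CPM in control heads. All 9 neuron markers were detected, with sums of 3861 to 5199 CPM in pum kd heads and 3862 to 6556 CPM in control heads. Of 10 gut and body genes, 6 were at 0 in every library, among them the trypsins alphaTry and betaTry and the accessory gland gene Acp26Aa. Others of this list were detected in every library, LManII at 199.9 to 333.6 CPM and Mal-A1 at 7.12 to 9.70 CPM. The list summed to 244 to 341 CPM in pum kd heads and 209 to 262 CPM in control heads. Heat shock genes were higher in pum kd heads, with 6 of 14 called and sums of 4703 to 6765 CPM against 2086 to 2308 CPM in control heads. The number of heat shock genes called ran from 0 without control 3 to 9 without control 2, with 3 without pum kd 3, and was 11 after ComBat-seq then DESeq2. Their part in the values below was not tested.

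None of the 10 dopamine genes was called, where 0.103% of all genes tested were (11 genes), 0.0187% as lower and 0.0841% as higher in pum kd heads. The largest difference was that of Dop2R, the D2-like receptor, with a log2 fold change of -0.71, while the other 9 genes lay between -0.41 and 0.24. Of the 10, 7 had a log2 fold change below 0, as did 54.4% of all genes, and their median was -0.22 against -0.030 over all genes. That median was -0.060 without pum kd 1, -0.089 without control 1, -0.38 without pum kd 3, -0.36 without control 2 and -0.11 after a correction for gene length. Dop2R alone had an unadjusted p under 0.05 (4.95% of all genes had one) and alone had groups that did not overlap (10.3% of all genes, 4.95% with pum kd lower and 5.36% with pum kd higher). With 10 genes, 1 gene is about the share that the background gives.

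**Figure D1:**
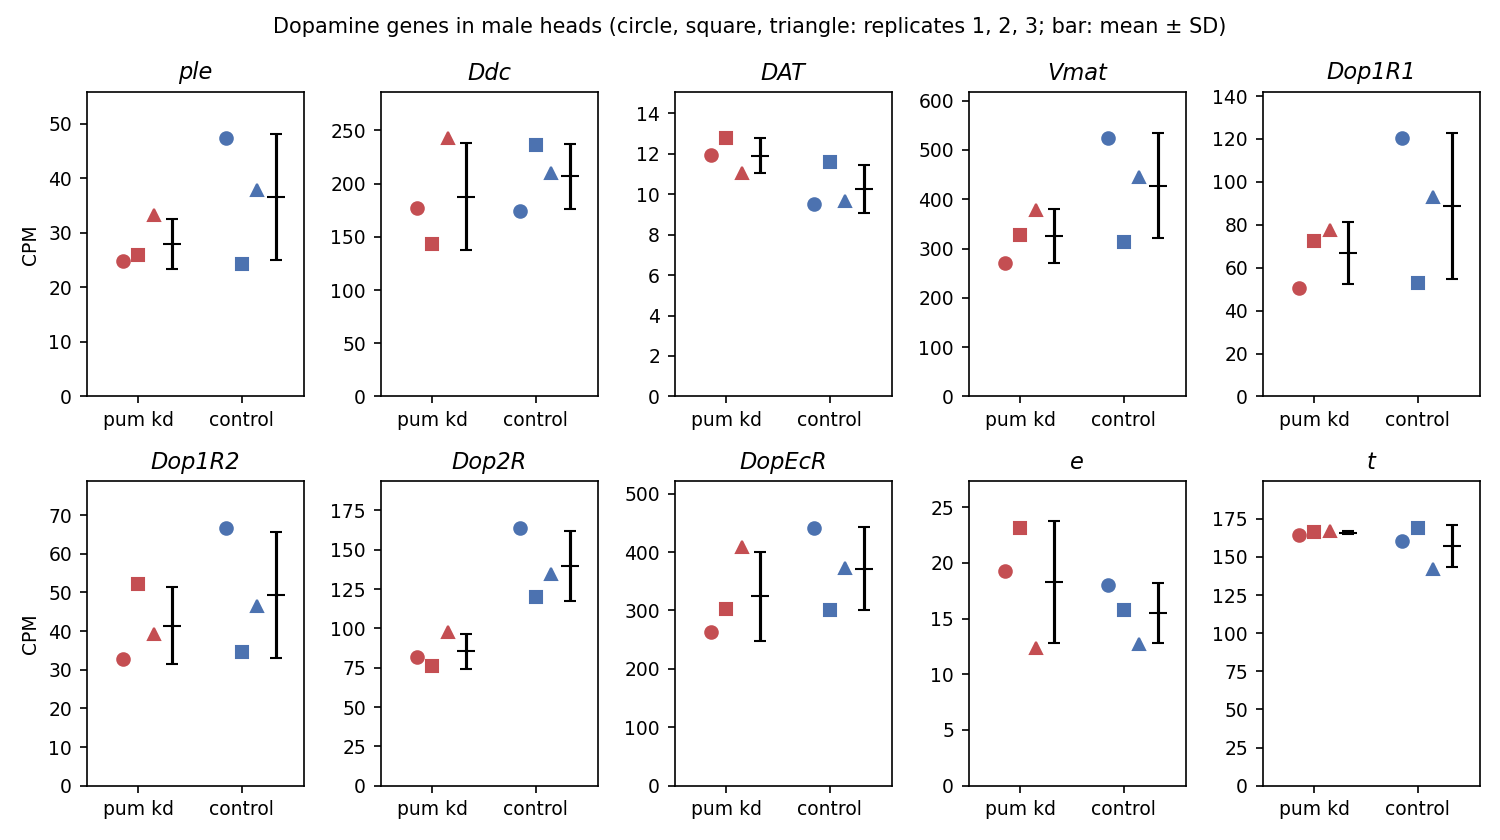
CPM (vertical axis, from 0) of the 10 dopamine genes in pum kd (left) and control (right) heads. Each point is a library (circle, square and triangle for replicates 1, 2 and 3) and the bars give mean ± SD. Only for Dop2R do the 3 pum kd libraries all lie below the 3 control libraries, 76.3 to 97.9 CPM against 120.1 to 164 CPM.

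The first step of synthesis is carried out by the product of ple, tyrosine hydroxylase, which turns tyrosine into L-DOPA and is the rate-limiting enzyme of the pathway. The gene (FBgn0005626) lies on the minus strand of 3L, from 6713356 to 6719525 in dm6, with 3806 bases of exons. It had 24.9, 25.9 and 33.2 CPM in pum kd libraries 1, 2 and 3, against 47.3, 24.3 and 37.9 CPM in control libraries 1, 2 and 3. The lowest library was control 2 and the highest control 1, so the control group enclosed all pum kd values. The means were 28.0 ± 4.56 CPM in pum kd heads and 36.5 ± 11.6 CPM in control heads (SD, n = 3 each). The log2 fold change of ple was -0.38 (95% interval -0.93 to 0.16, adjusted p = 0.993 in edgeR), which leaves the size of any difference wide.

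Ddc encodes dopa decarboxylase, which makes dopamine from L-DOPA and also makes serotonin. It (FBgn0000422) lies on the minus strand of 2L, from 19116483 to 19120306, with 2797 bases of exons, of which 88 bases (3.15%) overlap CG10561 on the other strand. It had 177, 144 and 242 CPM in pum kd libraries 1, 2 and 3, against 175, 236 and 209.5 CPM in control libraries 1, 2 and 3. Here both the lowest and the highest library were pum kd ones, replicates 2 and 3. Means were 188 ± 50.3 CPM in pum kd heads and 207 ± 30.8 CPM in control heads (SD, n = 3 each), with a log2 fold change of -0.14 (95% interval -0.63 to 0.35, adjusted p = 0.993 in edgeR). Without pum kd replicate 2 the direction of Ddc turned, to a log2 fold change of 0.052. Although ple and Ddc act in succession, they did not follow each other from library to library: control 1 was the highest of 6 for ple, whereas for Ddc it was below control 2 and control 3.

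Vmat encodes the vesicular monoamine transporter, which fills synaptic vesicles with dopamine, serotonin or octopamine. It (FBgn0260964) spans 13513132 to 13534251 on the minus strand of 2R, with 8134 bases of exons. Of these, 2129 bases (26.2%) overlap CG13330 on the opposite strand, and since the strand setting of the counting was not given in the sources used here, reads of the pair may not be fully separated. CG13330 itself had 166, 184 and 171 reads in pum kd libraries 1, 2 and 3, against 250, 108 and 255 reads in control libraries 1, 2 and 3, far fewer than Vmat, which had up to 17329. Vmat had 269.8, 328 and 378 CPM in pum kd libraries 1, 2 and 3, against 523, 313 and 446 CPM in control libraries 1, 2 and 3. Controls 1 and 3 lay above every pum kd library, and control 2 lay between pum kd 1 and pum kd 2. The means were 325 ± 54.3 CPM in pum kd heads and 427 ± 106 CPM in control heads (SD, n = 3 each), and the log2 fold change was -0.39 (95% interval -0.89 to 0.10, adjusted p = 0.993 in edgeR).

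DAT encodes the plasma membrane transporter that takes released dopamine back into the neuron; flies that lack it, the fumin mutants, sleep little. It (FBgn0034136) lies from 16558567 to 16565238 on the minus strand of 2R, with 3040 bases of exons. It was the gene with the fewest reads of the 10, down to 315 in a library, and at its mean of 387 reads counting alone gives a coefficient of variation of 5.08%. DAT had 11.9, 12.8 and 11.03 CPM in pum kd libraries 1, 2 and 3, against 9.51, 11.6 and 9.65 CPM in control libraries 1, 2 and 3. The 3 pum kd values were close together and above controls 1 and 3, but control 2 was higher than pum kd 3. The means were 11.9 ± 0.863 CPM in pum kd heads and 10.3 ± 1.17 CPM in control heads (SD, n = 3 each), with a log2 fold change of 0.22 (95% interval -0.25 to 0.69, adjusted p = 0.993 in edgeR).

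Dop2R encodes the D2-like receptor, which lowers cAMP through an inhibitory G protein and acts as an autoreceptor on dopaminergic neurons as well as on their targets. It (FBgn0053517) spans 20004680 to 20062706 on the minus strand of the X chromosome, with 6530 bases of exons. It had 81.9, 76.3 and 97.9 CPM in pum kd libraries 1, 2 and 3, against 164, 120.1 and 135 CPM in control libraries 1, 2 and 3. Every pum kd library was below every control library, the nearest pair being pum kd 3 and control 2. The means were 85.4 ± 11.2 CPM in pum kd heads and 139.5 ± 22.4 CPM in control heads (SD, n = 3 each), a fitted level in pum kd heads of 0.612 times that in control heads. The log2 fold change was -0.71 (95% interval -1.11 to -0.31, adjusted p = 0.4225 in edgeR), and by p-value Dop2R ranked 69 among the 10696 genes. Dop2R therefore did not pass the test, and its fold change was under the threshold of 1.

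Over the other ways of handling the counts, the Dop2R log2 fold change ran from -0.73 to -0.56, the latter with the correction for gene length. Its adjusted p varied much. DESeq2 on the same counts gave a log2 fold change of -0.69 and an adjusted p of 0.0477, where 0.148% of the genes tested were lower in pum kd heads at an adjusted p under 0.05. After ComBat-seq, the batch correction that the study used, DESeq2 gave -0.73 and an adjusted p of 0.00220, where 1.03% were lower at that adjusted p and 2.12% were called in either direction. Meanwhile edgeR on the same corrected counts gave -0.70 and 0.115. With batch as a term of the edgeR fit on the deposited counts, the log2 fold change was -0.71 and the adjusted p 0.769. With single libraries left out, the log2 fold change ran from -0.82 without pum kd 3 to -0.58 without control 1, with edgeR's adjusted p between 0.111 and 1. Within the batch of control 1, control 2 and pum kd 1, Dop2R had 81.9 CPM in the pum kd library and a mean of 142 CPM in the control libraries (log2 ratio -0.79). Within the batch of pum kd 2, pum kd 3 and control 3, it had a mean of 87.1 CPM in the pum kd libraries and 135 CPM in the control library (log2 ratio -0.63). The direction was thus shared by both batches, each of which holds a single library of 1 group and so gives no test. This was not particular to Dop2R. Every dopamine gene with a fitted log2 fold change below 0 was lower in both batches. Among them were Vmat (log2 ratios -0.63 and -0.34), Dop1R1 (-0.78 and -0.31) and Dop1R2 (-0.63 and -0.023). DAT and e were higher in both, and t had -0.0014 and 0.23.

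Dop1R1 encodes a D1-like receptor that raises cAMP and is known for arousal and olfactory learning. It (FBgn0011582) spans 14165379 to 14214810 on the minus strand of 3R and has the most exon sequence of the 10 genes, 14565 bases. It had 50.5, 72.3 and 77.6 CPM in pum kd libraries 1, 2 and 3, against 120.2, 52.8 and 93.2 CPM in control libraries 1, 2 and 3. Controls 1 and 2 held the highest and next to lowest values, and this was the widest control group of the 10 genes (coefficient of variation 38.3%, against 21.9% for the median gene). Its means were 66.8 ± 14.3 CPM in pum kd heads and 88.7 ± 34.0 CPM in control heads (SD, n = 3 each), with a log2 fold change of -0.41 (95% interval -1.03 to 0.21, adjusted p = 0.993 in edgeR).

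Dop1R2 encodes the other D1-like receptor, known for forgetting of olfactory memories and for coupling to calcium release. It (FBgn0266137) spans 29630304 to 29659984 on the minus strand of 3R, with 5164 bases of exons. It had 32.7, 52.1 and 39.3 CPM in pum kd libraries 1, 2 and 3, against 66.7, 34.6 and 46.5 CPM in control libraries 1, 2 and 3. Control 1 stood above the other 5 libraries, which mixed pum kd and control. Means were 41.4 ± 9.87 CPM in pum kd heads and 49.2 ± 16.3 CPM in control heads (SD, n = 3 each), and the log2 fold change was -0.25 (95% interval -0.82 to 0.32, adjusted p = 0.993 in edgeR). It rested on control 1, since without that library the log2 fold change of Dop1R2 was 0.032.

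DopEcR encodes a receptor that responds both to dopamine and to the steroid ecdysone. It (FBgn0035538) lies from 4367649 to 4380387 on the minus strand of 3L, with 4291 bases of exons. It had 262, 302 and 409 CPM in pum kd libraries 1, 2 and 3, against 442, 301 and 373 CPM in control libraries 1, 2 and 3. The 2 groups were interleaved, with control 1 highest and pum kd 1 lowest. The means were 325 ± 76.1 CPM in pum kd heads and 372 ± 70.5 CPM in control heads (SD, n = 3 each), with a log2 fold change of -0.20 (95% interval -0.68 to 0.29, adjusted p = 0.993 in edgeR).

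The product of e (ebony) is an enzyme of glia that joins beta-alanine to dopamine or histamine, and the product of t (tan) is the hydrolase, present in photoreceptors, that releases the amine again. The gene e (FBgn0000527) lies from 21229839 to 21237177 on the minus strand of 3R, with 3142 bases of exons, and t (FBgn0086367) from 9217655 to 9223257 on the minus strand of X, with 1975 bases. The values of e were 19.3, 23.2 and 12.4 CPM in pum kd libraries 1, 2 and 3, against 18.1, 15.8 and 12.7 CPM in control libraries 1, 2 and 3. Replicate 3 was the lowest of its group in both, and the pum kd group held both the highest and the lowest library. The mean of e was 18.3 ± 5.47 CPM in pum kd heads and 15.5 ± 2.67 CPM in control heads (SD, n = 3 each), with a log2 fold change of 0.24 (95% interval -0.34 to 0.81, adjusted p = 0.993 in edgeR).

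The values of t were 165, 166 and 167 CPM in pum kd libraries 1, 2 and 3, against 160.4, 169 and 142 CPM in control libraries 1, 2 and 3. No other gene of the 10 was as even, with a coefficient of variation of 0.658% in pum kd heads and 8.74% in control heads, where the median gene had 18.3% and 21.9%. At a mean of 5630.5 reads for t, counting alone gives 1.33%, which is more than the spread seen in pum kd heads. The mean of t was 166 ± 1.09 CPM in pum kd heads and 157 ± 13.7 CPM in control heads (SD, n = 3 each), and its log2 fold change was 0.076 (95% interval -0.28 to 0.43, adjusted p = 0.995 in edgeR).

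**Figure D2:**
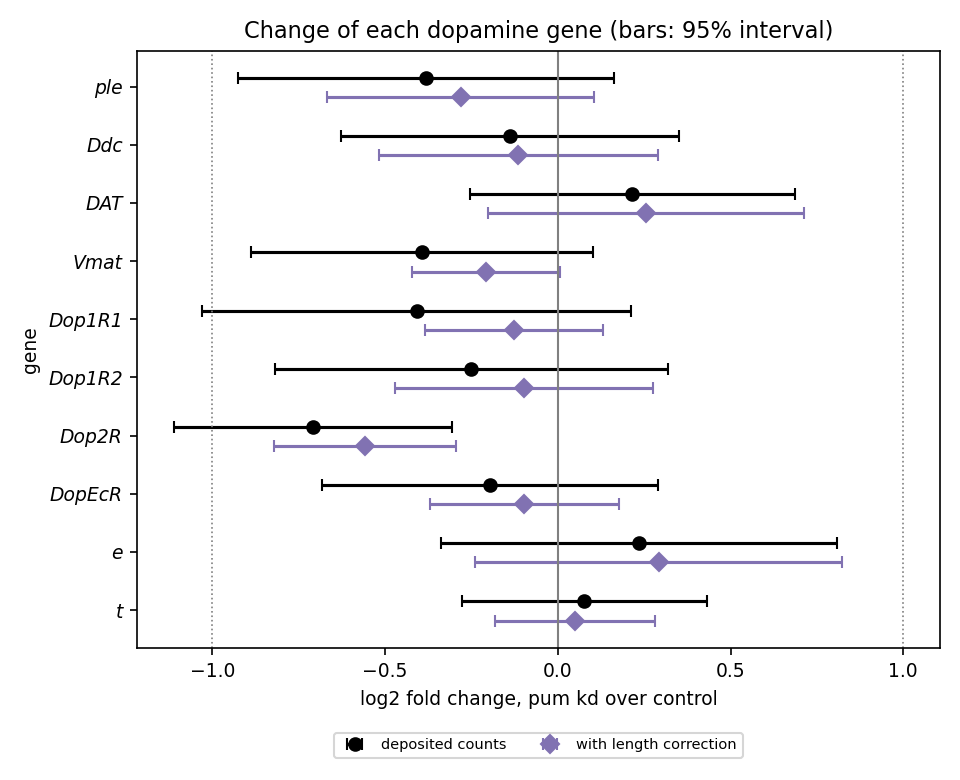
Log2 fold change, pum kd over control (horizontal axis), of each dopamine gene, from the deposited counts (black circles) and after a correction for gene length in each library (purple diamonds). The bars are 95% intervals worked out from the edgeR test and not adjusted for the number of genes tested. The interval of Dop2R lies below 0 in both, -1.11 to -0.31 and -0.82 to -0.29, but its adjusted p in edgeR was 0.4225 and 0.0822. The dotted lines mark the fold change needed for a call.

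To compare the genes with each other, CPM was divided by the length of exons, taken over all annotated transcripts of a gene (1 for e, 6 for Dop2R). Which transcripts were in use in heads was not determined, and annotated exons that are little used would lower this value. The CPM used here was not corrected for differences between libraries that follow gene length. On this per-length scale t and DopEcR had the highest levels over the 6 libraries, with 81.8 ± 5.01 and 81.1 ± 16.4 CPM per kb (SD, n = 6), and Ddc followed with 70.5 ± 13.9 CPM per kb. Vmat had 46.3 ± 11.5 CPM per kb and Dop2R 17.2 ± 5.15 CPM per kb. The lower levels were those of Dop1R2 (8.78 ± 2.47), ple (8.48 ± 2.40), e (5.38 ± 1.32), Dop1R1 (5.34 ± 1.80) and DAT (3.65 ± 0.425 CPM per kb). Of the neighbours in this order, only Vmat and Dop2R had ranges over the libraries that did not overlap. In group means Dop2R had 13.1 CPM per kb in pum kd heads and 21.4 CPM per kb in control heads, and ple 7.36 CPM per kb in pum kd heads and 9.60 CPM per kb in control heads. The enzyme of the second synthesis step thus had a clearly higher level per length than that of the first, in ranges that did not overlap.

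Much of the variation among libraries was common to several of the genes. Control 1 was the highest library for ple, Vmat, Dop1R1, Dop1R2, Dop2R and DopEcR, which are the 6 with the longest exons, and for none of the shorter 4. Summed over the 10 genes, the libraries had 1095, 1202 and 1468 CPM in pum kd replicates 1, 2 and 3, against 1726, 1278 and 1505 CPM in control replicates 1, 2 and 3. The neuron markers had sums of 3861, 4640 and 5199 CPM in pum kd replicates 1, 2 and 3, against 6556, 3862 and 5661 CPM in control replicates 1, 2 and 3. In both sums control 1 was highest, followed by control 3 and pum kd 3, with pum kd 1 lowest, although for the neuron markers it was almost level with control 2. All 9 neuron markers had a log2 fold change below 0, with a median of -0.28, and none was called. The 8 muscle markers were likewise all below 0, with a median of -0.32, sums of 5836 to 6582 CPM in pum kd heads and 6111 to 8381 CPM in control heads, and none called. Their part in the dopamine genes' values was not tested.

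**Figure D3:**
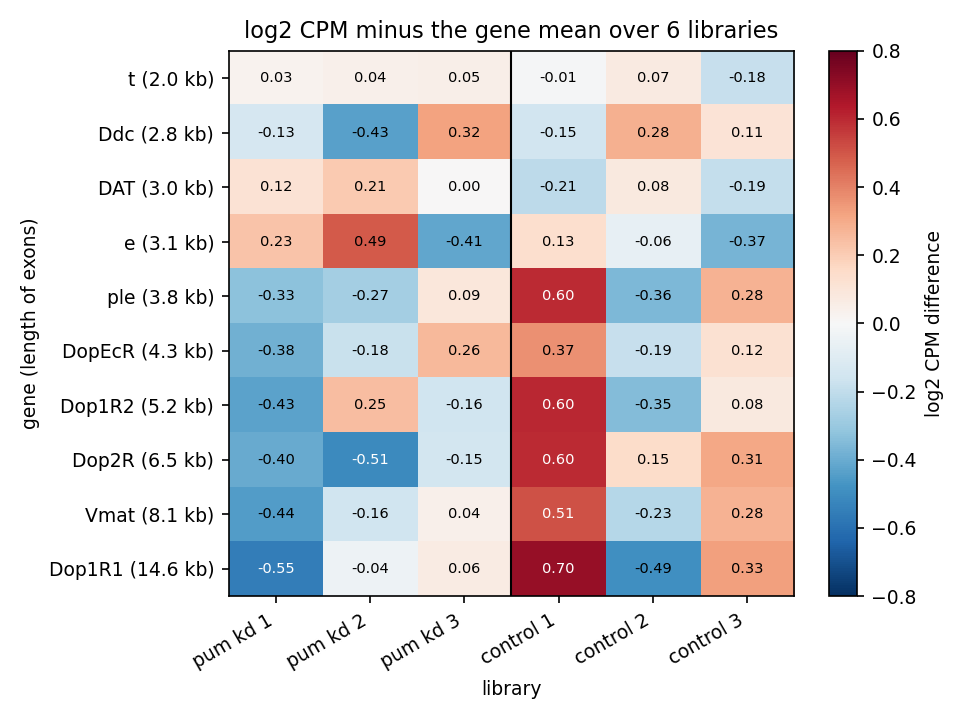
Difference of each library's log2 CPM from the gene's mean over 6 libraries (colour and number), for the dopamine genes ordered from the shortest exons (top) to the longest (bottom), pum kd libraries on the left and control libraries on the right. In control 1 the 6 longest genes stand 0.37 to 0.70 above their means, and Dop2R is the only gene below its mean in all 3 pum kd libraries and above it in all 3 control libraries.

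The same division by length was present across all genes. In control 1 the median gene with 5 to 10 kb of exons stood 0.36 above its mean log2 CPM over the libraries, and in control 2 and pum kd 1 it stood at -0.29 and -0.28. The median log2 fold change fell with exon length, to -0.17 for the 1172 genes of 5 to 10 kb and -0.26 for the 264 genes above 10 kb, against 0.09 for the 1958 genes under 1 kb. Vmat (-0.39), Dop1R2 (-0.25) and Dop2R (-0.71) belong to the class of 5 to 10 kb, and Dop1R1 (-0.41) to the class above 10 kb. Within the class of 5 to 10 kb, 21 genes (1.79%) had a log2 fold change as low as that of Dop2R or lower, against 5.59% of all genes tested. Dop2R was placed in this way because its difference was the largest of the dopamine genes, so these shares are a description and no test. Fold changes were also more widely spread among genes under 1 kb (quartiles -0.19 and 0.37) than in the class of 5 to 10 kb (-0.27 and -0.06).

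**Figure D4:**
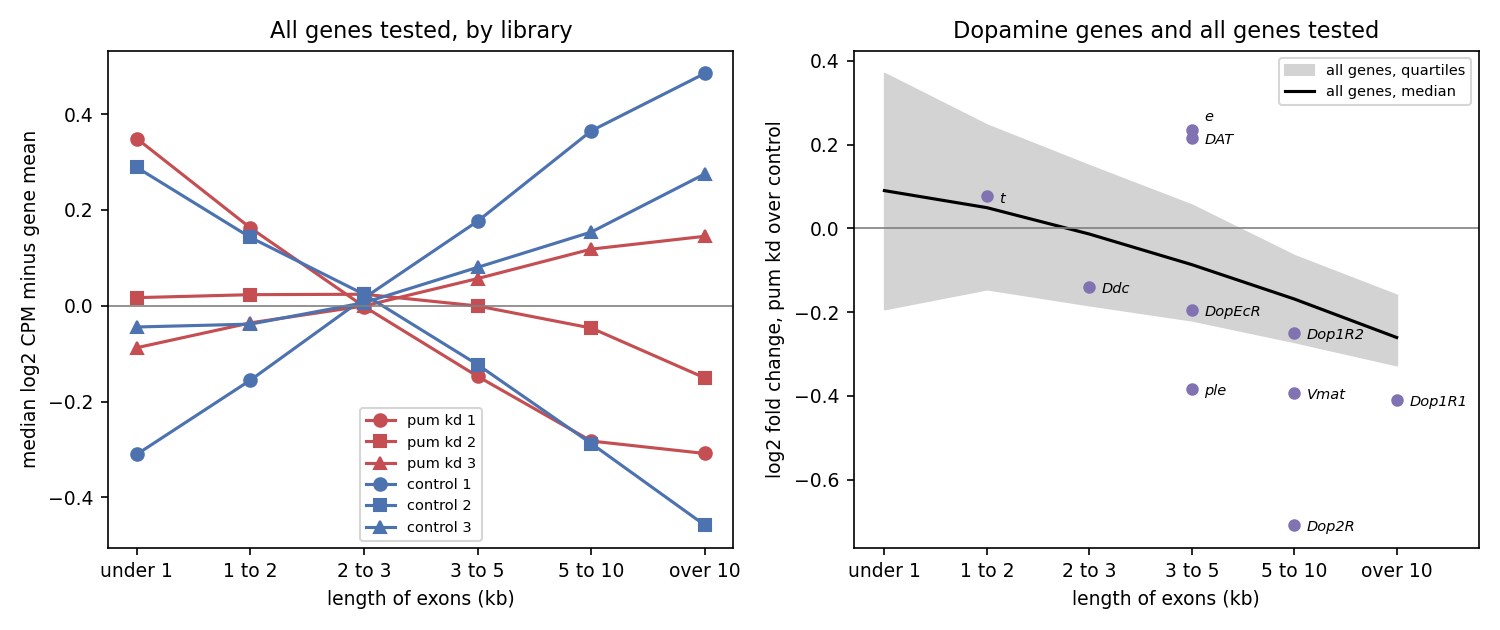
Left, median difference of log2 CPM from the gene mean (vertical axis) for all genes tested, by length of exons in kb (horizontal axis), a line for each library. Right, log2 fold change, pum kd over control, of the dopamine genes (points) over the quartiles (grey) and median (black line) of all genes of that length. The median runs from 0.09 under 1 kb to -0.26 above 10 kb. Dop2R, singled out as the dopamine gene with the largest difference, is at -0.71, below the quartiles of its class, -0.27 and -0.06.

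When a smooth curve of log2 CPM on exon length was taken out of each library, the spread of the long dopamine genes became narrower. Vmat then had 333, 348 and 348 CPM in pum kd libraries 1, 2 and 3, against 396, 399.6 and 393 CPM in control libraries 1, 2 and 3. Its groups no longer overlapped, with coefficients of variation of 2.59% in pum kd heads and 0.861% in control heads, and its log2 fold change was -0.21 (adjusted p = 0.625 in edgeR). Dop2R had 99.5, 79.6 and 91.0 CPM in pum kd libraries 1, 2 and 3, against 129, 147 and 122 CPM in control libraries 1, 2 and 3. It kept groups that did not overlap, and its log2 fold change was -0.56 (95% interval -0.82 to -0.29, adjusted p = 0.0822 in edgeR), which is not a call. Groups that did not overlap were thus found for 2 of the 10 genes, where the same correction gave 14% of all genes, 6.88% with pum kd lower. Dop1R1, the longest, had 64.2, 81.1 and 69.9 CPM in pum kd libraries 1, 2 and 3, against 84.0, 74.3 and 76.5 CPM in control libraries 1, 2 and 3, and its log2 fold change of -0.13 (adjusted p = 0.909 in edgeR) was nearer to 0 than the uncorrected one. For ple the control group stayed wide, with 27.8, 26.1 and 32.1 CPM in pum kd libraries 1, 2 and 3, against 41.8, 26.5 and 36.2 CPM in control libraries 1, 2 and 3. The log2 fold changes of the other genes were -0.097 for Dop1R2, -0.097 for DopEcR, -0.11 for Ddc, 0.25 for DAT, 0.29 for e and 0.050 for t.

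Ratios of members within a library do not depend on how libraries are scaled. They were not corrected for length and can carry the length trend where the genes differ in exon length, as Vmat (8134 bases) and DAT (3040 bases) do. A total of 6 ratios were compared by two-sided exact permutation tests, which with 3 against 3 libraries cannot give a p below 0.1. The ratio of ple to Ddc, the first to the second step of synthesis, was 0.141, 0.181 and 0.137 in pum kd libraries 1, 2 and 3, against 0.271, 0.103 and 0.181 in control libraries 1, 2 and 3 (exact p = 0.7, adjusted p = 0.7). The ratio of Vmat to DAT, vesicle loading to reuptake, was 22.6, 25.7 and 34.3 in pum kd libraries 1, 2 and 3, against 55.01, 27.0 and 46.2 in control libraries 1, 2 and 3 (exact p = 0.2, adjusted p = 0.4). Both ratios overlapped between the groups, and control 1 had the highest value in each.

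The ratio of e to t, conjugation to release, was 0.117, 0.140 and 0.0742 in pum kd libraries 1, 2 and 3, against 0.113, 0.0933 and 0.0896 in control libraries 1, 2 and 3 (exact p = 0.7, adjusted p = 0.7). The summed D1-like receptors relative to Dop2R were 1.02, 1.63 and 1.19 in pum kd libraries 1, 2 and 3, against 1.14, 0.727 and 1.04 in control libraries 1, 2 and 3 (exact p = 0.3, adjusted p = 0.45). Neither of these pairs separated the groups, and the receptor ratio in control 1 was above that in pum kd 1.

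The last 2 ratios were chosen after the values had been seen. Dop2R relative to Vmat, another long neuronal gene, was 0.304, 0.232 and 0.259 in pum kd libraries 1, 2 and 3, against 0.313, 0.383 and 0.302 in control libraries 1, 2 and 3, and the groups overlapped because pum kd 1 was just above control 3 (exact p = 0.2, adjusted p = 0.4). Dop2R relative to the summed neuron markers was 0.0212, 0.0164 and 0.0188 in pum kd libraries 1, 2 and 3, against 0.0250, 0.0311 and 0.0238 in control libraries 1, 2 and 3. These groups did not overlap (difference of mean log2 ratios -0.50, exact p = 0.1, the smallest that these libraries can give, adjusted p = 0.4). Since the ratio was picked once the Dop2R values were known, it is a description and no separate evidence, and without control 2 the exact p was 0.2.

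Likeness of pattern was measured as Pearson's r of log2 CPM with ple over the 6 libraries, as a description without a test, since 829 of 7153 genes compared had r of at least 0.9 and all share the libraries and their length trend. The 5 genes closest to ple were CG17698 (r = 0.998), gce (0.998), jim (0.997), CG11247 (0.997) and velo (0.995). Of these, gce encodes a receptor for juvenile hormone and jim a zinc finger protein. Among the dopamine genes, Vmat (0.97), Dop1R1 (0.95) and DopEcR (0.91) were close to ple, and Dop2R (0.78) and Dop1R2 (0.75) less so. Ddc was unrelated in pattern (0.05), and e (-0.36), t (-0.54) and DAT (-0.91) ran the other way.

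Genes around the pathway were described by lists, each set beside the 0.103% of all genes called and their median log2 fold change of -0.030. Groups that do not overlap are given for single genes, and 10.3% of all genes had such groups. Tyrosine hydroxylase needs the cofactor tetrahydrobiopterin. None of its 6 genes tested was called, 5 had a log2 fold change above 0, and the median was 0.15 (0.051 without control 1 and 0.27 without control 2). Those with the lowest p were Catsup, known in flies as a negative regulator of the first steps of dopamine synthesis, with 51.0, 61.5 and 46.3 CPM in pum kd libraries 1, 2 and 3 against 41.5, 43.8 and 47.5 CPM in control libraries 1, 2 and 3, and Sptr, sepiapterin reductase, with 13.8, 12.0 and 13.03 CPM in pum kd libraries against 13.02, 16.8 and 16.2 CPM in control libraries. Both overlapped between the groups.

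Of the genes that acetylate amines or supply beta-alanine, the substrate of ebony, 6 were tested and none was called, with a median of 0.0082 (-0.039 without control 1 and -0.015 with the length correction). The lowest p was that of pyd3, a beta-ureidopropionase of the pyrimidine route to beta-alanine, with 41.6, 48.4 and 35.0 CPM in pum kd libraries 1, 2 and 3, against 27.5, 30.6 and 31.2 CPM in control libraries 1, 2 and 3. Its pum kd libraries were all above its control libraries (log2 fold change 0.48, adjusted p = 0.808 in edgeR). The second enzyme that can supply beta-alanine, encoded by b (black), had 28.9, 19.8 and 23.8 CPM in pum kd libraries 1, 2 and 3, against 26.0, 29.6 and 20.9 CPM in control libraries 1, 2 and 3.

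None of the 9 other amine enzymes and transporters was called, and 6 of them had a log2 fold change below 0. Their median was -0.073, and it turned to 0.024 without pum kd 1 and 0.015 with the length correction. SerT, the serotonin reuptake transporter, had 38.9, 37.5 and 29.9 CPM in pum kd libraries 1, 2 and 3, against 45.0, 52.2 and 49.7 CPM in control libraries 1, 2 and 3. Its groups did not overlap (log2 fold change -0.47, adjusted p = 0.808 in edgeR). The other gene with a low p was amd, a relative of Ddc with a role in cuticle, with 32.03, 18.7 and 36.1 CPM in pum kd libraries 1, 2 and 3, against 34.5, 40.9 and 49.2 CPM in control libraries 1, 2 and 3 (log2 fold change -0.52, adjusted p = 0.993 in edgeR), and its groups overlapped. Among 13 receptors for octopamine, tyramine and serotonin none was called, 10 were below 0 and the median was -0.10. That median also turned, to 0.16 without control 1, 0.091 without pum kd 1 and 0.064 with the length correction. The lowest p-values there were 0.169 for 5-HT1A and 0.292 for Octbeta3R.

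Downstream of the receptors stand G proteins, adenylyl cyclases, the cAMP phosphodiesterase dnc, protein kinase A and receptor kinases. Of these 22 genes none was called, 21 had a log2 fold change below 0, and they ran from -0.38 to 0.10 with a median of -0.25. With the length correction the median was -0.067, without pum kd 1 it was -0.087 and without control 1 -0.085. Galphaq, the G protein of the phospholipase C route, had 130.0, 122.3 and 129.6 CPM in pum kd libraries 1, 2 and 3, against 177, 139 and 170 CPM in control libraries 1, 2 and 3. Its groups did not overlap (log2 fold change -0.35, adjusted p = 0.993 in edgeR). Gprk2, a G protein-coupled receptor kinase, had 82.4, 85.6 and 93.7 CPM in pum kd libraries 1, 2 and 3, against 141, 92.3 and 105 CPM in control libraries 1, 2 and 3, with an overlap of pum kd 3 and control 2.

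Ebony and tan also serve histamine, the photoreceptor transmitter, and 6 genes of its recycling and reception were tested without a call. Their median was 0.17, with 0.38 without pum kd 2 and -0.026 without pum kd 3. ort, the histamine-gated chloride channel of the neurons behind the photoreceptors, had 38.6, 38.2 and 41.6 CPM in pum kd libraries 1, 2 and 3, against 23.4, 27.6 and 27.8 CPM in control libraries 1, 2 and 3. Its pum kd libraries were all higher (log2 fold change 0.59, adjusted p = 0.514 in edgeR). Balat, a beta-alanine transporter of glia, had 11.8, 8.25 and 3.45 CPM in pum kd libraries 1, 2 and 3, against 3.08, 4.17 and 1.53 CPM in control libraries 1, 2 and 3, and overlapped (log2 fold change 1.42, adjusted p = 0.757 in edgeR). Beside these, the summed glial markers were 1596 to 1919 CPM in pum kd heads and 1600 to 1638 CPM in control heads, with 6 of 9 tested above 0 and none called. The lowest p among them was that of alrm, with 57.4 to 71.3 CPM in pum kd heads and 32.4 to 34.0 CPM in control heads. Its log2 fold change was 0.95 (adjusted p = 0.0699 in edgeR). The part of the glial markers was not tested.

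Dopamine is also the precursor of black and tan cuticle pigment. Of 12 melanin and tanning genes tested none was called, 7 were above 0 and the median was 0.12 (0.0074 without control 1, -0.050 after ComBat-seq then edgeR, -0.073 after ComBat-seq then DESeq2 and -0.022 among genes with a mean CPM of at least 1). PPO1, a prophenoloxidase of crystal cells, had 13.7, 19.2 and 20.8 CPM in pum kd libraries 1, 2 and 3, against 13.3, 10.8 and 11.6 CPM in control libraries 1, 2 and 3. Its groups did not overlap (log2 fold change 0.59, adjusted p = 0.825 in edgeR). The next lowest p in this list was 0.172, for the laccase gene stw.

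**Figure D5:**
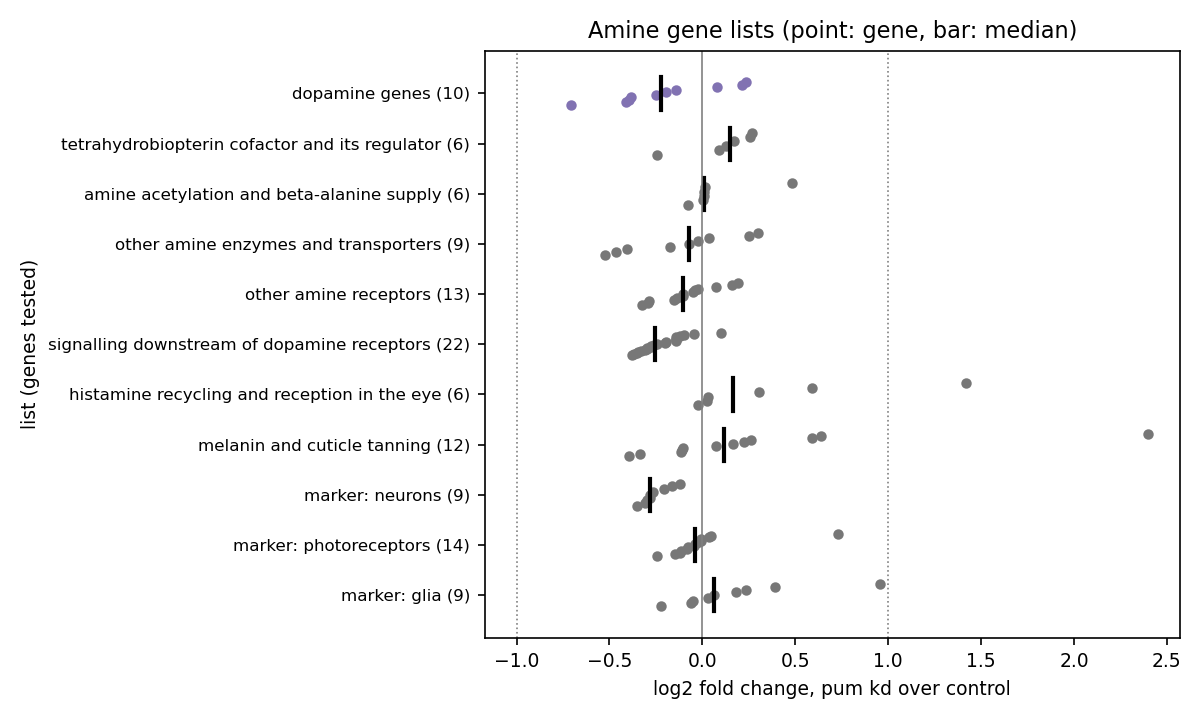
Log2 fold change, pum kd over control (horizontal axis), of the tested genes of each list (points, with the number tested in brackets) and the list's median (bar). Among the 11 lists drawn, which leave out muscle and heat shock genes, the medians run from -0.28 for neuron markers to 0.17 for histamine genes. The dopamine genes stand at -0.22, and the dotted lines mark the fold change needed for a call.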

How the data were processed

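Poly-A RNA of 10 pooled male heads per library was sequenced on an Illumina NovaSeq X Plus from stranded libraries. Per the submitters' processing notes, the authors used FastQC 0.12.1, Trimmomatic 0.39, STAR 2.7.11b and DESeq2 with dm6. The authors deposited the raw counts of each gene in 1 table, not normalized, and these counts were used for all tests. In a second table the authors deposited a normalized signal, counts after ComBat-seq divided by size factors, with columns of their own DESeq2 comparison, which were not used. That signal served to find the batches, which the sources used here do not name: dividing the libraries into control 1, control 2 and pum kd 1 against control 3, pum kd 2 and pum kd 3 gave back 100% of its values within a relative tolerance of 1e-04. Counts that name no gene (11.5% to 14.2% of a library) were left out. Of 17807 gene identifiers, 17710 matched the Ensembl annotation of dm6, which gave positions and exon lengths.

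The quasi-likelihood test of edgeR 4.0.16 (R 4.3.3) was run after filterByExpr and TMM scaling, with Benjamini-Hochberg adjusted p-values, pum kd against control, without covariates. Libraries of the same replicate number were not treated as pairs in this test. Correlations of deviations between them were -0.09, -0.02 and 0.01, which cannot show whether they were collected together. Within a group the counts of each pair of libraries differed far beyond sampling noise (the lowest chi-square was 44.0 times its degrees of freedom). The code was tested on simulated data. Alternatives were RLE size factors, other filters, robust dispersion, a replicate block, a batch term, ComBat-seq (sva 3.50.0), DESeq2 1.42.0, a loess correction for exon length (span 0.3) and leaving out each library. The genes and lists were chosen with earlier results of these data known. All 10 dopamine genes are named; of other lists, called genes or else up to 2 with the lowest p; and the 5 genes most like ple among those with a mean of at least 10 CPM. The listed genes AANAT1 and Nplp2 were not matched, and several symbols were matched by their current name.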

Additional observations from a re-analysis of the deposited data

How the results depend on the processing

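None of the 10 dopamine genes was called under any of the 16 alternatives, and of 160 values of their log2 fold changes 158 kept their direction and side of the threshold. The exceptions were Ddc, 0.052 without pum kd replicate 2 (-0.37 to 0.052 over the libraries left out), and Dop1R2, 0.032 without control replicate 1 (-0.42 to 0.032). The number of genes called over the whole table was 11 and depended on the setting: 73 without a filter, 55 with DESeq2 on the deposited counts, 29 with ComBat-seq then edgeR, 220 with ComBat-seq then DESeq2 and 26 with the length correction. Leaving out a library gave 1 (without control replicate 3) to 30 (without control replicate 2) called genes, with 7 without pum kd replicate 2. The cause was not tested. After ComBat-seq then DESeq2, 1 histamine gene, Balat, was called. With the replicate number as a block 14 genes were called, the log2 fold change of Dop2R was -0.70 (adjusted p = 0.827 in edgeR) and the block changed no call of a dopamine gene. With a library left out, the difference of mean log2 ratios ran from -0.55 to 0.15 for ple to Ddc, from -0.072 to 0.38 for e to t, from -0.90 to -0.38 for Vmat to DAT, from 0.21 to 0.55 for D1-like receptors to Dop2R, from -0.43 to -0.22 for Dop2R to Vmat and from -0.59 to -0.38 for Dop2R to the neuron markers. With 3 libraries a group the spread between pools, with coefficients of variation of 18.3% in pum kd and 21.9% in control heads for the median gene, limits what could be detected.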
